A study of Mus musculus with 419 samples.

Results

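Tmem72, Slc25a20, Dhtkd1 and Tnfrsf22 are 4 genes with ordinary cell functions that had transcript rows far above the rest in a single embryonic stem cell with high Zscan4. They were chosen by their values in that cell against the other cells, and every transcript that GENCODE vM21 gives for them was followed in both allele tables. They make up 14 of the 117762 transcript rows, 13 of which held any value. The 5 that rose are called here the long Tmem72 row, the Slc25a20 intron row (a retained intron), the 3-exon and 2-exon Dhtkd1 rows (both non-coding) and the single-exon Tnfrsf22 row. The study read 419 single G1 cells of the female hybrid mouse embryonic stem cell line F1-21.6, which carries 129Sv and Cast/EiJ chromosomes, to measure transcription from each allele. Cells were grown on laminin-511 in serum medium with leukemia inhibitory factor, and their total RNA was sequenced along the whole transcript (RamDA-seq, which adds no molecular identifiers). All cells formed 1 group of 1 line with no treatment, no separate cultures are named, and the G1 gate limits them to that phase. Values below are the deposited 129 and CAST values summed, on the authors' scale. No p-value or standard error was made from cells, so all values describe these cells and no replicate culture checks them.

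Tmem72 codes for a membrane protein known from kidney. Slc25a20 is the carnitine-acylcarnitine carrier that brings fatty acids into mitochondria for oxidation. Dhtkd1 is the first subunit of the 2-oxoadipate dehydrogenase of lysine and tryptophan breakdown, and Tnfrsf22 is a decoy receptor for the death ligand TRAIL. A small fraction of mouse embryonic stem cells passes through a state that resembles the embryo just after its first division. That state is known for Zscan4 proteins, which act on telomeres, for the transcription factor Dux, and for transcription of endogenous retroviruses, whose long terminal repeats can also start transcripts of ordinary genes.

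One cell, numbered 284 in the labels and read in lane 4, stood highest by each of 3 measures. It had the highest sum of the embryo-state list without Eif1a (14307), of the Zscan4 rows (5478) and of all rows (1477656). The total of the other 418 cells was 924088 ± 55306 (SD over cells), from 698363 to 1083168. Cell 284 had 21872 rows above 0, and 1 other cell had fewer, against 29263 ± 1431 (SD) in the others. Of 22 measured genes of the list, 16 were at least 5 times the mean of the other cells with a value of at least 100, and Eif1a was lower. Over all 19080 genes the same rule took 1.86%. Nothing is read from this count, since the sum of the same list without Eif1a chose the cell. Of the pluripotency list, 0 of 9 genes were higher and 4 were at most 0.2 times the mean (24.5% of 4980 genes with a mean of at least 20 were as low). In cell 284 Pou5f1 was 24 against a mean of 177, Esrrb 12 against 504, Tfcp2l1 9 against 484 and Dppa5a 162 against 922. No gene of the primitive endoderm, trophectoderm, fibroblast or renal lists was called higher. The 4 measured fibroblast markers were listed at 0. The trophectoderm sum was 214 against a median of 42 in the others (0 to 11644), and 369 of the 418 lay below it. Krt8 gave most of it, at 156 against a median of 5, with 38 cells higher, while 4 of the 7 genes were at 0. The primitive endoderm sum was 13 against a median of 9 (0 to 123, with 261 cells below). The renal sum was 54 against a median of 35.5 (0 to 3854, with 252 cells below).

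The rows that rose share sequence with the long Tmem72 row, which is shown first because later paragraphs refer to it. Sequences are from the GENCODE vM21 transcripts, on GRCm38 (mm10). A stretch of 94 bases near the end of the Slc25a20 intron row (chr9:108664555-108664648, plus strand) is identical to a stretch of the single-exon Tnfrsf22 row (chr7:143635682-143635775, minus strand) and to the reverse strand of the long Tmem72 row. Below, the Slc25a20 intron row has the whole stretch, with capitals on the 30 bases that are also printed from the other rows. For the single-exon Tnfrsf22 row these lie at chr7:143635714-143635743, and for the reverse strand of the long Tmem72 row at chr6:116689888-116689917.
Slc25a20 intron row: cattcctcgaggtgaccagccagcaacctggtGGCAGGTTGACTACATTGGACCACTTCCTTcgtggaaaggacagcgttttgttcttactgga
Tnfrsf22 single-exon row: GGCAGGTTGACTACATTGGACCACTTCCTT
Tmem72 long row (reverse strand): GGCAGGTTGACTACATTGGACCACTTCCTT
The Dhtkd1 rows match elsewhere, in a direct repeat described in the next paragraph. The 3-exon Dhtkd1 row is shown over its bases 395 to 568 (chr2:5924977-5925150, minus strand) and the 2-exon Dhtkd1 row over its first 64 bases (chr2:5924713-5924776, minus strand). Capitals mark a base that differs from the repeat, of which there is 1 in the 3-exon row and 0 in the 2-exon row.
Dhtkd1 3-exon row: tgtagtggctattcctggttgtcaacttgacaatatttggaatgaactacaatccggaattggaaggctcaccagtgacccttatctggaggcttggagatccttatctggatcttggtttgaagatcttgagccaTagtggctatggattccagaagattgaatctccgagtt
Dhtkd1 2-exon row: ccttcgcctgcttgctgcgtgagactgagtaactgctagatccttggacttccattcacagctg

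The long transcript of Tmem72 (ENSMUST00000056623) lies at chr6:116679063-116716913 on the minus strand and is 17152 bases long in 5 exons, of which 825 bases are coding. Its last exon takes 16467 bases. Within its 3′ UTR lie 2 direct repeats of 494 bases each, at row positions 4643 to 5136 and 10566 to 11059, which differ from each other at 1 base. From the start of one to the end of the other is a span of 6417 bases (chr6:116685156-116691572). Read on the reverse strand, each repeat begins with TGT and ends with ACA, and the span has the same 5 bases, GGCTA, on either side in the row. As background, a pair of long direct repeats with such ends between a short duplication is how a retrovirus-like element lies in a genome. No repeat annotation was used here, so the span is given no family name.

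All 4 other rising rows align to the reverse strand of this span. The single-exon Tnfrsf22 row aligned over 766 bases with 97.8% identity (17 mismatches, chr7:143635674-143636439). This is 43.0% of that row and includes 581 of its coding bases. In the long 6-exon coding transcript of Tnfrsf22 the same stretch lies in the last of 6 exons, with 0 coding bases. The Slc25a20 intron row aligned over 366 bases with 98.4% identity (6 mismatches, chr9:108664428-108664793), in intron 1 of the 9-exon coding transcript of Slc25a20. The 3-exon Dhtkd1 row aligned over 260 bases with 97.3% identity (chr2:5924892-5925150), and the 2-exon Dhtkd1 row over 99 bases with 97.0% and 96.0% identity to the 2 copies (chr2:5924678-5924776). Both Dhtkd1 stretches lie in intron 4 of the coding transcripts of Dhtkd1, with 18 and 17 exons. Counted from the first base of the repeat, the 3-exon Dhtkd1 row ends on its positions 1 to 260 and the 2-exon Dhtkd1 row begins on positions 318 to 416. On chromosome 2 these stretches follow each other in the same order with 115 bases between them. The map of the long Tmem72 row shows the Dhtkd1 rows on both repeats and the other rows between them.

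**Figure D1:**
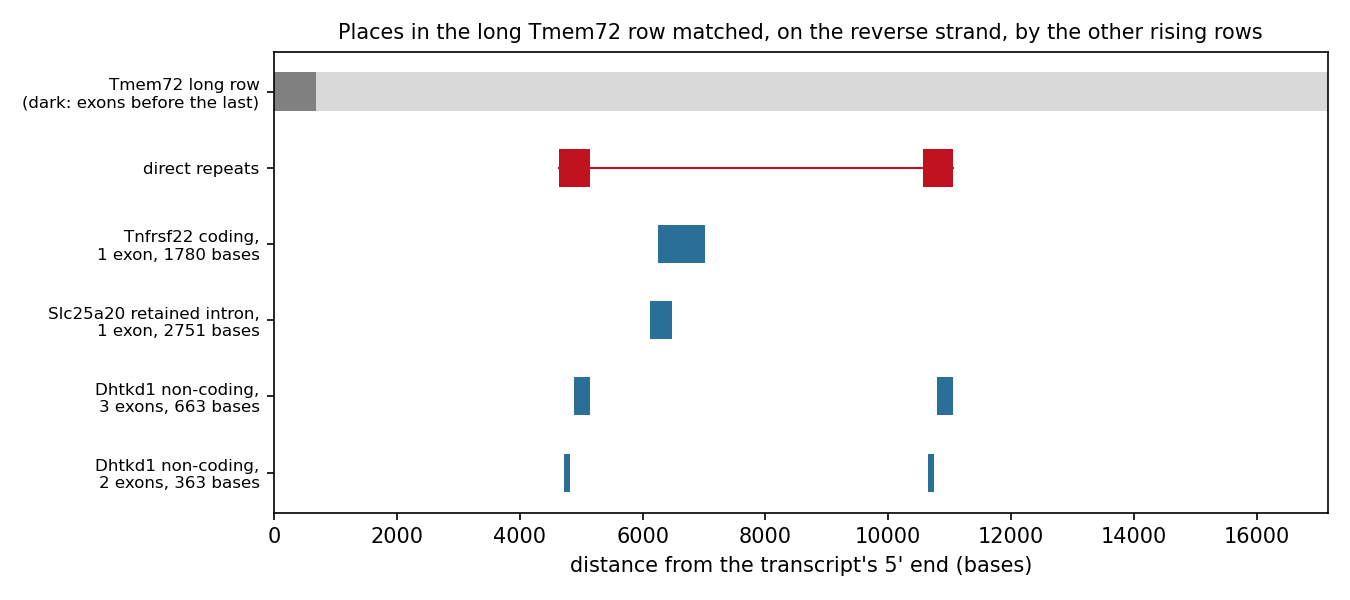
Places along the long Tmem72 row (distance from its 5′ end in bases) matched on the reverse strand by the other rising rows. The red boxes are the 494-base direct repeats and the line between them the span of 6417 bases. The blue boxes of the 2 Dhtkd1 rows fall on both repeats, and those of the single-exon Tnfrsf22 row and the Slc25a20 intron row fall between them and overlap.

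In cell 284, 5 of the 13 rows with any value had at least 5 times the mean of the other cells and a value of at least 100. Over all rows that entered (a sum of at least 100), 476 of 57905 did (0.822%). Nothing is read from this comparison, since the same values chose the members. The long Tmem72 row was at 365941 in cell 284, against a lowest of 88, a median of 320 and a highest of 37268 in the other 418 cells. Its ratio to their mean (432) was 846, and it took 24.8% of the cell's total against a mean of 0.0462% elsewhere. Per kilobase of transcript, cell 284 had 21335 and the other cells a mean of 25.2. The second annotated transcript (ENSMUST00000129255, chr6:116695274-116716729) ends before the span and was listed at 0 in all 419 cells.

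The retained-intron transcript of Slc25a20 (ENSMUST00000194088, 2751 bases, chr9:108662088-108664838) was at 7750 in cell 284. The other cells lay between 2 and 849 with a median of 15, and the ratio to their mean of 18.5 was 420. The carrier's coding transcript (ENSMUST00000035222) did not rise. It was at 3 in cell 284 against a mean of 28.3, and 404 of 418 cells were higher. The other retained-intron row (ENSMUST00000195260) was listed at 0, with a mean of 0.557 elsewhere. Of the 2751 bases of the retained-intron transcript, 235 lie inside exons of the coding one, so reads over those could belong to either.

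For Dhtkd1 the rising rows were 2 short non-coding ones. The 3-exon one (ENSMUST00000151649, 663 bases, chr2:5924882-5930856) was at 4371 against 0 to 294 in the other cells, with a median of 6 and a ratio to their mean of 648. The 2-exon one (ENSMUST00000127609, chr2:5923875-5924776) was at 572 against 0 to 48, and 107 of the other 418 cells had any value. The coding rows, which make the enzyme subunit, did not pass the fold. The 17-exon coding row (ENSMUST00000095147) was at 38, all from CAST, against a mean of 15.5, and 15 other cells were higher. The 18-exon coding row (ENSMUST00000026924) and the last non-coding row (ENSMUST00000155977) were listed at 0, with means of 2.51 and 0.323.

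The single-exon transcript of Tnfrsf22 (ENSMUST00000171066), annotated as coding and 1780 bases long (chr7:143634806-143636585), was at 16894 in cell 284. The others ran from 1 to 1702 with a median of 21, and the ratio to their mean of 27.7 was 610. The long 6-exon row (ENSMUST00000075588), the 7-exon row (ENSMUST00000146692) and the short 6-exon row (ENSMUST00000084396) were listed at 0 in cell 284 and had means of 11.4, 4.86 and 0.478 elsewhere. Since 1778 of the 1780 bases of the single-exon transcript lie inside exons of the long 6-exon one, these rows cannot be told apart by most of their reads. Cell 284 stood above every other cell in each of the 5 rising rows, and cell 435 was next in all 5. Nothing is read from the place of cell 284, since these rows were chosen by their values in it. The share of all rows in which it is highest was not counted. Against the other cells of its own lane the ratios were 1048 for the long Tmem72 row, 459 for the Slc25a20 intron row, 714 for the 3-exon Dhtkd1 row and 681 for the single-exon Tnfrsf22 row.

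**Figure D2:**
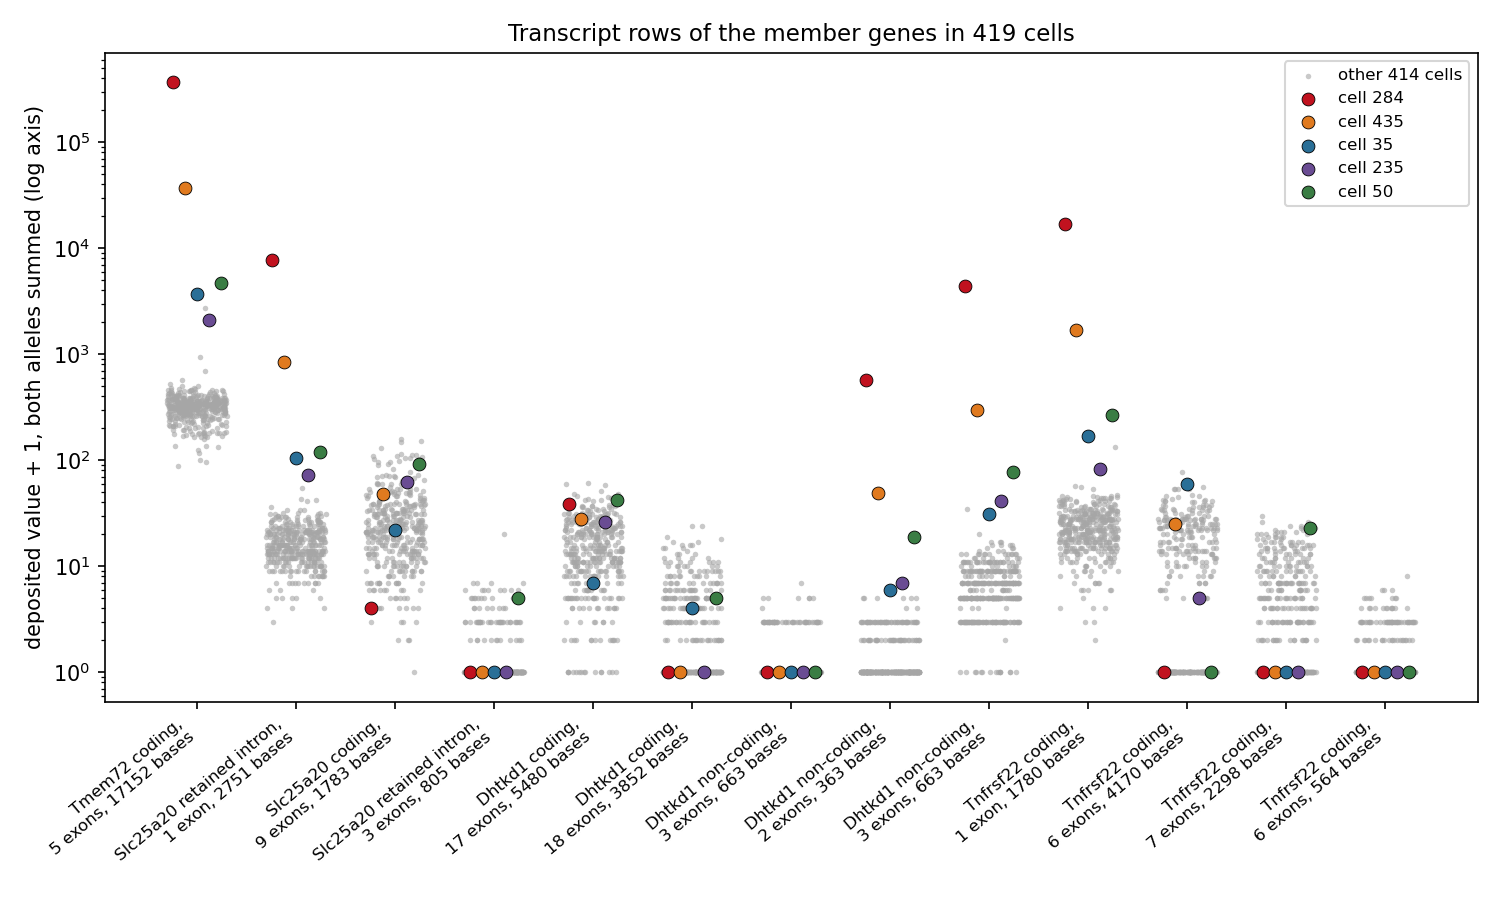
Deposited value plus 1 (both alleles, log axis) of each row with any value, by cell, with the 3-exon Dhtkd1 row that rose drawn last of its gene. Grey points are the other 414 cells and large points the 5 cells with a list sum of at least 100. Cell 284 lies highest in 5 rows, from 572 in the 2-exon Dhtkd1 row to 365941 in the long Tmem72 row, and within or below the other cells in the coding rows of Slc25a20 and Dhtkd1.

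Besides cell 284, 4 cells had a list sum of at least 100, a limit set after the values were seen. Cell 435 (lane 6) had 1153 in the Zscan4 rows, 37268 in the long Tmem72 row, 849 in the Slc25a20 intron row, 48 in the 2-exon Dhtkd1 row, 294 in the 3-exon Dhtkd1 row and 1702 in the single-exon Tnfrsf22 row. Cell 35 (lane 2) had more Zscan4 (1885) and less of each member row, with 3693, 103, 5, 30 and 168 in the same order. Cell 235 (lane 4) had 445 in the Zscan4 rows and 2106, 72, 6, 40 and 82 in the member rows. Cell 50 (lane 2) had only 10 in the Zscan4 rows, yet 4683, 119, 18, 77 and 268, more of every member row than cells 35 and 235. So the order of the cells by Zscan4 was not their order by member rows. Relative to the mean of the remaining 414 cells, the long Tmem72 row was 1139-fold in cell 284, 116-fold in cell 435, 11.5-fold in cell 35, 6.56-fold in cell 235 and 14.6-fold in cell 50.

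The 5 cells differed in the other genes of the list as well. Zfp352, a zinc finger gene of the early embryo, was at 1929 in cell 284 and at 13, 2, 34 and 0 in cells 435, 35, 235 and 50. Usp17lc, of a deubiquitinase family, was at 4084, 226, 303, 168 and 22. Tmem92 was at 621, 499, 93, 35 and 82. Duxf3, the Dux gene itself, was highest in cell 435 with 106, and at 10, 13, 10 and 6 in the others. Within the Zscan4 copies cell 284 had most of Zscan4d (1513) and Zscan4f (1151) and 0 of Zscan4e, while cell 435 had most of Zscan4a (584). The Zscan4 copies are close paralogs, so the division of reads among them is uncertain.

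The member rows kept closer proportions to one another than to Zscan4. Nothing is read from this, since cell 284 chose the rows and rows that share sequence can share reads. The long Tmem72 row was 21.7, 21.9, 22.0, 25.7 and 17.5 times the single-exon Tnfrsf22 row in cells 284, 435, 35, 235 and 50, against 14.2 for the means of the rest. It was 47.2, 43.9, 35.9, 29.2 and 39.4 times the Slc25a20 intron row, against 20.2 in the rest. Against the 3-exon Dhtkd1 row the multiples spread more, at 83.7, 127, 123, 52.6 and 60.8, against 55.9.

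In the remaining 414 cells the long Tmem72 row ran from 88 to 2748 with a median of 319. The highest of these, cell 375, had 13 in the Zscan4 rows and was also highest of the 414 in the Slc25a20 intron row (54), the 3-exon Dhtkd1 row (34) and the single-exon Tnfrsf22 row (132). Any Zscan4 was found in 45 of them. Their median in the long Tmem72 row was 326, from 166 to 2748, against 319, from 88 to 498, in the 369 cells with none. The ranges overlapped from 166 to 498. The medians of the Slc25a20 intron row were 17 and 15, of the 3-exon Dhtkd1 row 5 and 6, and of the single-exon Tnfrsf22 row 24 and 21.

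Over all 419 cells, on log2(value + 1), Pearson's r with the summed Zscan4 rows was 0.73 for the long Tmem72 row, 0.58 for the Slc25a20 intron row, 0.52 for the single-exon Tnfrsf22 row, 0.48 for the 2-exon Dhtkd1 row and 0.47 for the 3-exon Dhtkd1 row. The points share a culture, a library preparation and the authors' scaling, so these are descriptions. Without the 5 cells they were 0.28, 0.15, 0.08, -0.02 and 0.06 over 414 cells, so the relation rests mostly on those cells. Spearman's rho over all cells was 0.15, 0.15, 0.12, 0.02 and 0.06. Within single lanes r for the long Tmem72 row ran from 0.19 to 0.87 with all cells and from 0.04 to 0.50 without the 5.

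In those 414 cells the other rising rows had a higher r with the long Tmem72 row than with Zscan4. The comparison is uneven and decides nothing. Zscan4 was 0 in 369 of these cells, and rows that share sequence with the long Tmem72 row can share reads with it. Pearson's r with the long Tmem72 row was 0.51 for the Slc25a20 intron row, 0.47 for the single-exon Tnfrsf22 row, 0.44 for the 3-exon Dhtkd1 row and 0.18 for the 2-exon Dhtkd1 row, the row with values in few cells. Within lanes it ran from 0.41 to 0.59 for the Slc25a20 intron row, from 0.34 to 0.59 for the single-exon Tnfrsf22 row and from 0.27 to 0.60 for the 3-exon Dhtkd1 row. For the coding row of Slc25a20 it was 0.02, for the 17-exon coding row of Dhtkd1 0.07, and for the long 6-exon row of Tnfrsf22 0.13.

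**Figure D3:**
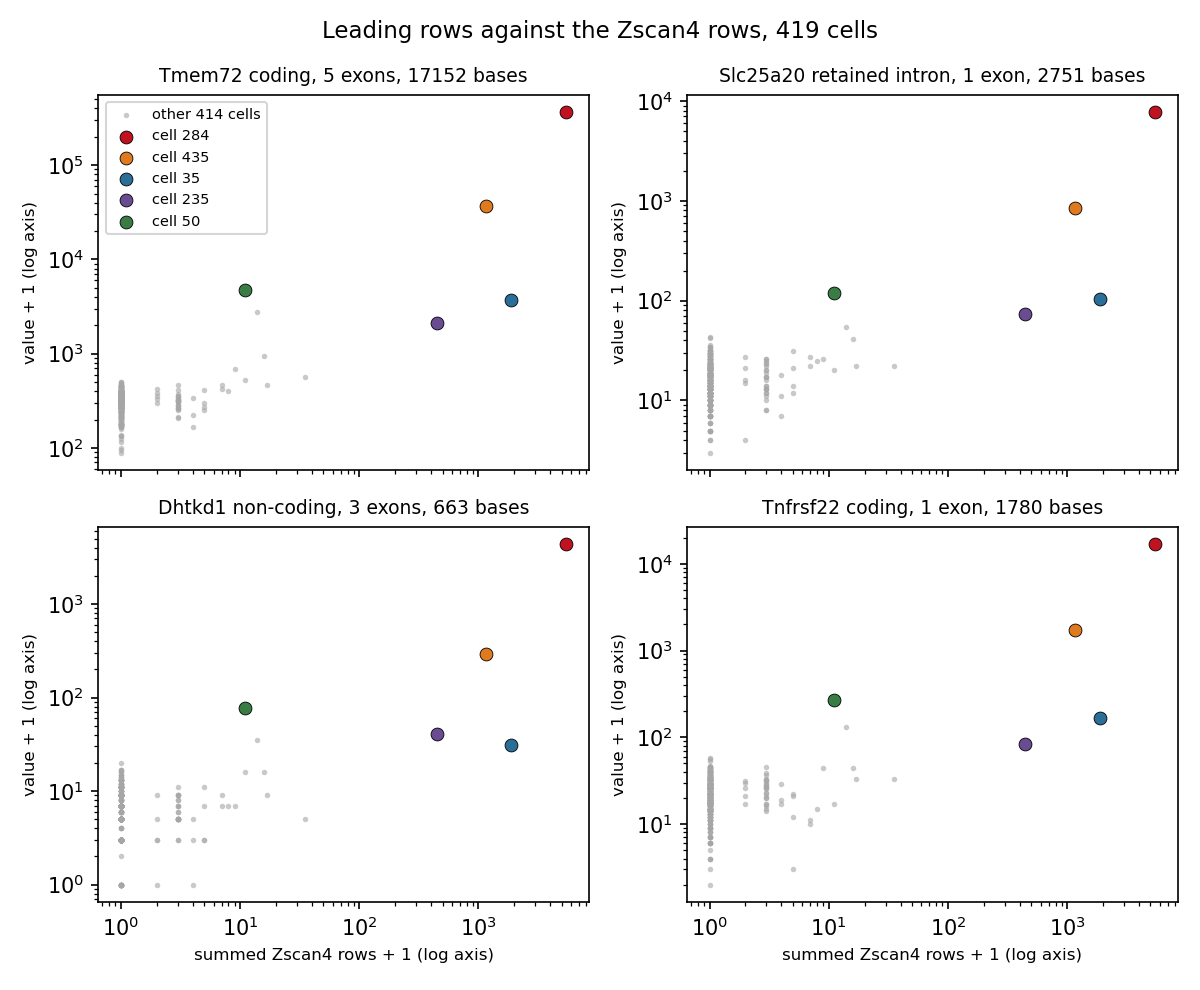
Leading row of each gene (value plus 1, log axis) against the summed Zscan4 rows (plus 1, log axis) in 419 cells. Cell 284 is at the upper right in each panel, and cell 50 lies high with a Zscan4 sum of 10. Most of the other 414 cells stand at a Zscan4 sum of 0. In the long Tmem72 row those reach 498, while the cells of the 414 with some Zscan4 reach 2748.

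A search for the genes most like each leading row ran over the 418 cells without cell 284 and among 10310 genes. These had a sum of at least 1000 and a value above 0 in at least 10% of cells. Predicted genes with Gm or Rik symbols were left out, Gm44660 and others that share sequence with the long Tmem72 row among them. Within this set the search returned the other 3 members among the 5 highest for each. The row that stood for a gene was chosen by its sum over all cells, cell 284 included. In the other 418 cells the coding row of Slc25a20 had a higher mean than the intron row (28.3 against 18.5). The 17-exon coding row of Dhtkd1 also had a higher mean than the 3-exon row (15.5 against 6.74). Over those cells these coding rows had r of 0.08 and 0.10 with the long Tmem72 row. Nothing is therefore read from the return of these members. For the long Tmem72 row these were Slc25a20 (0.67), Tnfrsf22 (0.63), Dhtkd1 (0.57), Acad9 (0.47) and Fgd4 (0.46). For the 3-exon Dhtkd1 row and the single-exon Tnfrsf22 row the same 2 other genes came in, Acad9 with 0.36 and 0.31 and Fgd4 with 0.29 and 0.31. For the Slc25a20 intron row Arih2, a gene within 200 kb, stood at 0.42 beside Dhtkd1 (0.42) and above Tnfrsf22 (0.40). Without the other 4 cells with a high list sum (414 cells) the order of these genes changed. For the long Tmem72 row Fgd4 (0.52) then stood above Slc25a20 (0.51), and Acad9 (0.46) above Dhtkd1 (0.44). For the Slc25a20 intron row Arih2 stayed at 0.42 while Dhtkd1 had 0.27 and Tnfrsf22 0.20. For the single-exon Tnfrsf22 row Fgd4 (0.28) and Acad9 (0.24) stood above Dhtkd1 (0.21) and Slc25a20 (0.20), and only the long Tmem72 row (0.47) stayed ahead of both. So the lead of the members over the other genes compared rested partly on those 4 cells, and for Slc25a20 and Dhtkd1 on the row chosen. Acad9 was at 158 in cell 284 against a mean of 32.9, Fgd4 at 332 against 42.7 and Arih2 at 64 against 58.8. None of these 3 rows shares an exact run of 31 bases with the long Tmem72 row.

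Since the rising rows share the span, all rows that entered and have a transcript sequence were sorted by their match to the long Tmem72 row. The measure was how many of their bases lie in exact 31-base matches to it on either strand. This sorting was chosen after the values were seen. Of 57414 rows with no such match, 419 passed the fold in cell 284 (0.730%). Of 61 rows with 1 to 99 matched bases 22 did (36.1%), and of 47 rows with at least 100 matched bases 31 did (66.0%). Without the rows of the 4 genes the last was 27 of 42 (64.3%). All 42 of these rows matched inside the span with at least 100 bases, and 0 rows reached 100 bases only in the rest of the long Tmem72 row. Of the 47 rows, 33 matched on the reverse strand and 14 on the same strand, the long Tmem72 row matched to itself among the 14. D10Wsu102e, counted as reverse, matched over 800 bases there and over 148 on the same strand. None of the 40 rows of the embryo-state list and the Zscan4 copies has such a match. The sum that let a row enter includes cell 284, so some matched rows entered only through it. Among them were a row of Gm10552 (133 there, a mean of 0.0431 elsewhere) and one of Gm16026 (342, mean 0.00478). Some predicted genes hold identical values, such as Gm43601 and Gm42713 (2700 each). The shares past the fold are therefore descriptions only.

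The rows with the highest values in this group belong to predicted genes. Gm44660 was at 77522 against a mean of 155, Gm38947 at 14625 against 18.7, Gm44739 at 12310 against 8.31 and Gm16344 at 10940 against 13.3. Among named genes, a row of Dhx33 was at 2692 against 22.3, one of Rpia at 1178 against 5.28, one of Dcdc2c at 1665 against 4.19 and one of Dhcr7 at 1112 against 6.27. A match did not go with a rise in every row. Abt1 shares 452 bases with the span and was at 14 against 14.4, and D10Wsu102e shares 796 and was at 1375 against 723. Among the members, the long 6-exon row of Tnfrsf22 shares 646 bases and was listed at 0. The remaining rows of Slc25a20, Dhtkd1 and Tnfrsf22, coding ones of all 3 genes included, share no bases with it and did not pass the fold. These genes were picked after their values were seen. Rows with near-identical sequence can exchange reads, and the placing of reads that match several rows is not described in the sources used here. How far each row's own locus was transcribed therefore cannot be told apart from reads of the other copies by the sums alone.

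**Figure D4:**
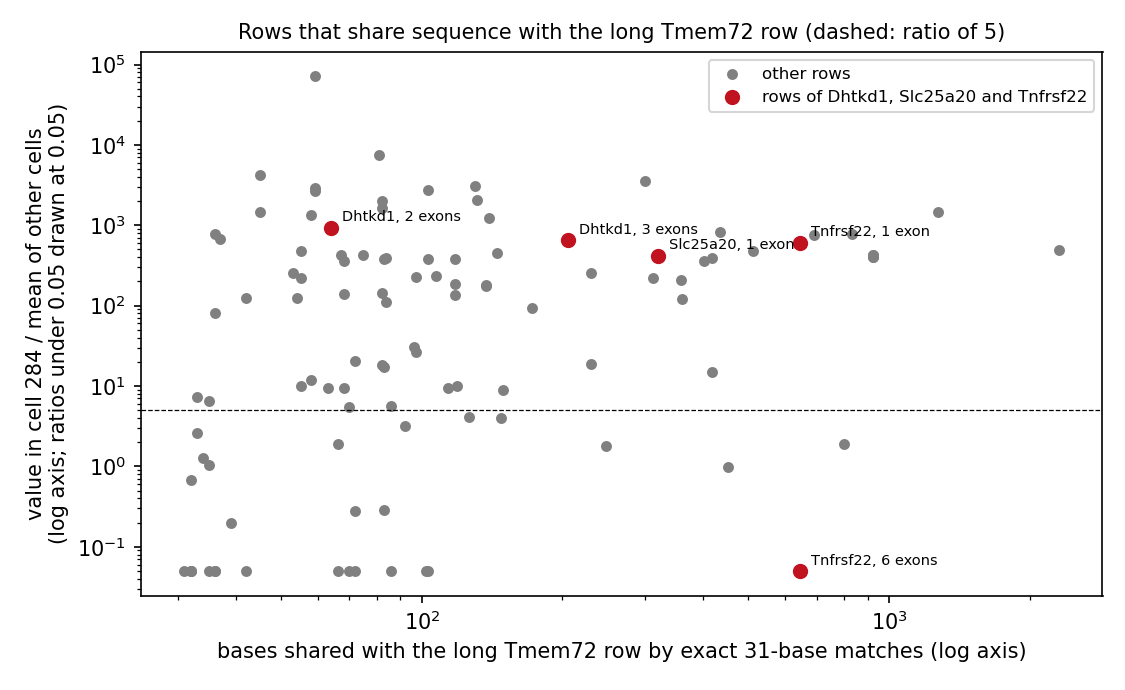
Ratio of the value in cell 284 to the mean of the other cells (log axis, ratios under 0.05 drawn at 0.05) against bases shared with the long Tmem72 row (log axis), for each other row with a shared 31-base match. The dashed line is the ratio of 5. Both Dhtkd1 rows, the Slc25a20 intron row and the single-exon Tnfrsf22 row lie between 420 and 934, and the long 6-exon row of Tnfrsf22 is at 0.

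Rows of this group also passed the fold in the other cells with a high list sum. Without the members, and against the mean of the 414 cells, 13 of the 42 rows passed in cell 435 (31%), against 0.154% of all rows there. In cell 50 it was 6 rows (14.3%, all rows 0.111%), in cell 35 3 rows (7.14%, all rows 0.130%) and in cell 235 1 row (2.38%, all rows 0.0501%). Cell 50, with its Zscan4 sum of 10, thus had more of these rows past the fold than cell 35, with 1885. The 47 rows held 538843 of the total of cell 284 (36.5%), 6.19% of that of cell 435, 0.886% of that of cell 50, and a median of 0.145% in the 414 cells, from 0.0438% to 0.648%. Without them cell 284 had a total of 938813, near the median of the 414 cells without them, 924009. The ribosomal RNA rows took 12% of cell 284, within the range of the others (8.68% to 23.8%).

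The allele values differed among the members. In the long Tmem72 row the 2 tables differed by at most 10% of their sum in 100% of the 419 cells (177565 from 129 and 188376 from CAST in cell 284), and its pooled 129 share was 48.5%. Tables this alike in every cell do not show expression from both alleles. The sources used here do not give how reads without an allele difference were placed. The 3-exon Dhtkd1 row was at 2192 from 129 and 2179 from CAST in cell 284, and the pooled 129 share of the other cells was 50.6%. Its tables were as alike in 72.5% of the 69 cells with a value of at least 10, so the same limit holds for this row. In single cells at low values it often came from 1 table: CAST was listed at 0 in 49 cells and 129 in 61.

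The pooled values of the single-exon Tnfrsf22 row were nearly all from 129. This row had 16778 from 129 and 116 from CAST in cell 284 (99.3% 129), 1683 and 19 in cell 435, 168 and 0 in cell 35, 82 and 0 in cell 235, and 261 and 7 in cell 50. The pooled 129 share of the other 418 cells was 94.2% (SD over 5 lanes 1.67), and CAST was listed at 0 in 324 cells. Thus the values of this row in the 5 cells, and in the other cells when pooled, were mostly from the 129 table. In the other cells the long 6-exon row, which covers nearly all of its bases, had a 129 share of 66.4%. The 7-exon row had 44.4% and the short 6-exon row 55.5%. Since reads of other copies can be placed in the single-exon row, its share is not known to be that of its own locus. Single cells varied. In the 241 other cells with at least 20 in this row the 129 share ran from 23.3% to 100%, with a median of 100%. The Slc25a20 intron row had a 129 share of 44.1% in cell 284 (3419 and 4331), 58.4% in cell 435 (496 and 353), 75.7% in cell 35, 72.2% in cell 235 and 89.1% in cell 50. The pooled share of the other 418 cells was 77.2%, and the lanes' pooled shares ran from 73.1% to 81.7%. Single cells spread far more widely. In the 118 other cells with at least 20 in this row the share ran from 6.90% to 100%, and 19 of them lay at or below that of cell 284. CAST was listed at 0 in 223 cells. The coding row of Slc25a20 had a 129 share of 52.7% in the other cells. Reads of other copies can also be placed in the Slc25a20 intron row, so the same limit holds for its shares.

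**Figure D5:**
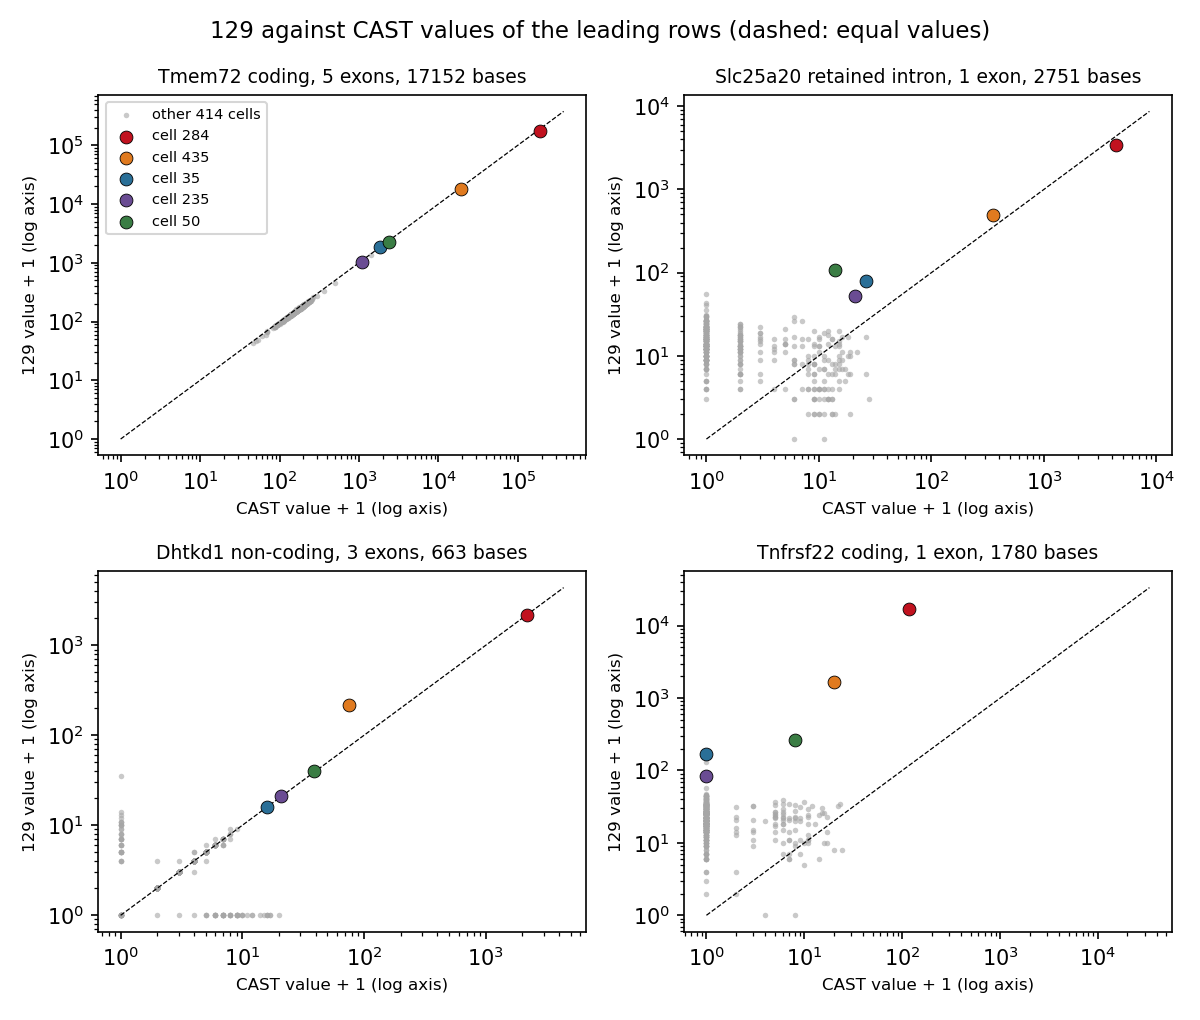
Values from the 129 table against those from the CAST table (each plus 1, log axes) for the leading row of each gene. The dashed line marks equal values. The long Tmem72 row lies near the line in each cell, the single-exon Tnfrsf22 row lies far on the 129 side in the 5 cells, and the Slc25a20 intron row crosses to the CAST side in cell 284.

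No gene of the 4 pathway lists was called higher in cell 284. With 1.86% of all 19080 genes called, a count of 0 in lists of this size is no result about them. Across 4980 genes with a mean of at least 20 the median ratio of cell 284 to the other cells was 0.494, so most genes were lower there. Of 21 measured genes of the carnitine shuttle and fatty acid oxidation, 6 had a mean of at least 20, with a median ratio of 0.582, and 0 of the 6 were called lower (24.5% of all genes with such a mean were). The highest ratios were those of Crot, the peroxisomal carnitine acyltransferase (23 against a mean of 11.9), and Cpt2, that of the inner mitochondrial membrane (22 against 15.5). Of 4 genes listed at 0, Cpt1c had a mean of 17.1 elsewhere and the thiolase Acaa2 13.0. Hadh, a later step of the oxidation, was at 13 against 39.2. Of 18 genes of lysine and tryptophan breakdown and the 2-oxo acid dehydrogenases, 10 had a mean of at least 20 and 1 of these was lower, Ogdh, of the 2-oxoglutarate dehydrogenase (4 against 94). Afmid, of tryptophan breakdown, was at 8 against 2.09 and Dbt, of the branched-chain dehydrogenase, at 40 against 17.3. Of 4 genes listed at 0, Gcdh, the enzyme after Dhtkd1 in lysine breakdown, had a mean of 18.6 and Bckdha 14.7. Dlst, the second subunit that Dhtkd1 works with, was at 118 against 149, and Dld, the third, at 82 against 44.0.

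Of 19 genes of TRAIL and TNF receptor signalling, 3 had a mean of at least 20 and 1 of these was lower, the caspase inhibitor Xiap (listed at 0 against 58.1). Casp8, the caspase that death receptors recruit, was at 2 against 0.923 and its inhibitor Cflar at 16 against 7.46. In all 9 genes were listed at 0, the TNF receptor Tnfrsf1a with a mean of 3.75 among them. Tnfrsf23, the neighbouring decoy receptor gene, was at 3 against 2.35, and Tnfrsf10b, the mouse death receptor for TRAIL, at 28 against 56.7. Of 27 mitochondrial carriers, 12 had a mean of at least 20 and 5 of these were lower, beside the 24.5% of all genes. Among them were the ATP/ADP carrier Slc25a5 (124 against 744) and the phosphate carrier Slc25a3 (9 against 127). The aspartate-glutamate carrier Slc25a13 was at 167.0 against 85.7 and the glutamate carrier Slc25a22 at 6 against 3.36. Of 7 carriers listed at 0, the other aspartate-glutamate carrier Slc25a12 had a mean of 52.4 and Slc25a39 30.2.

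Around the members, 3 of 44 genes within 200 kb with a row that entered were called higher in cell 284, beside 1.86% of all genes by the same rule. They were Gm5580 near Tmem72 (146 against 0.0455), Gm26298 near Slc25a20 (136.8 times the mean of 2.75) and Dhcr7, of cholesterol synthesis, near Tnfrsf22 (another row than the one above, 286 against 14.4). Of these, Gm26298 shares 118 bases with the span and the rows of the others share 0. Gm5580 entered only through its value in cell 284. None of the 8 neighbours of Dhtkd1 was called. In RefSeq's promoter windows on GRCm38.p6 (250 bases before to 50 after the start), 3 of the 4 genes were found, and Tnfrsf22 was not matched. On both strands, none of the 3 windows holds TGCACAC, a motif reported for Zscan4 (4.40% of 32851 windows), GATTNAATC, the core of a motif reported for Dux (0.268%), or TATAAA (13.6%). The 3-exon Dhtkd1 row starts at chr2:5930856, outside the window of its gene, chr2:5942743-5943042.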

How the data were processed

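The 2 tables, 1 per allele, hold 117762 Ensembl transcript rows for each of 419 cells. The deposited values are whole numbers but not raw counts, and their unit was taken as a score: allele values scaled by the authors to nearly common totals and rounded. Depth in reads is therefore unknown. The submitters' processing notes list Bowtie 1.1.2 and mm10, with no role. The sources used here do not give which tool split the alleles and scaled the values, nor whether strand was used. Per cell, the mean total per cell was 925409 ± 61504 (SD), over 5 sequencing lanes of 80 to 88 cells. Each column was matched by title, leaving 0 unused. No cell was left out and no doublet caller was run.

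Rows were joined to GENCODE vM21 (116919 matched). The 129 and CAST values were summed. A row entered with a sum over cells of at least 100, and was past the fold where a cell had at least 100 and at least 5 times the mean of the others. For gene lists the row with the highest sum stood for the gene, called lower where its mean was at least 20 and the cell had at most 0.2 times that. The embryo-state list held Zscan4, Tdpoz, Usp17l, Tcstv, Zfp352, Duxf3, Tmem92, Eif1a and others. Named genes were the members, list genes, for each pathway the 2 highest and 2 lowest ratios (of several genes at 0, the 2 with the highest means, a tie rule added after the values were seen), the 5 genes most like each leading row, and neighbours within 200 kb. Dld, Dlst, Hadh, Ogdh, Slc25a3, Slc25a5, Tnfrsf10b and Tnfrsf23 were named for their roles after their values were seen. Shared sequence was measured by exact matches of 31 bases between transcripts, and alignments were made with blastn 2.17.0 (e-value limit 1e-10). Members and lists were chosen with earlier results of these data known. The fold rule was tested on simulated data. Alternatives covered scaling, allele table, rows summed, lane, thresholds and cells left out. Versions were pandas 2.3.3, numpy 2.4.6 and scipy 1.17.1 under Python 3.11.15, with figures from matplotlib 3.10.9.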

Additional observations from a re-analysis of the deposited data

How the results depend on the processing

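Each ratio of cell 284 to the other cells stayed well above 1 under every alternative tried. Values are given for the leading rows in the order Tmem72, Slc25a20, Dhtkd1 and Tnfrsf22. Scaling each cell to a common total gave 537, 264, 407 and 383.9, and scaling without the ribosomal RNA rows gave 517, 254, 391 and 370. Against the highest of the other cells the multiples were 9.82, 9.13, 14.9 and 9.93. With all rows of a gene summed, Slc25a20 was at 164, Dhtkd1 at 194.2 and Tnfrsf22 at 380. The 129 table alone gave 240 for Slc25a20, and the CAST table alone gave 1030 for Slc25a20 and 71.8 for Tnfrsf22. The share of all rows past the fold was 2.03% with a least value of 20 and 0.522% after scaling to a common total. In the cell with the second highest list sum, 36.2% of the 47 rows (members included) sharing at least 100 bases with the long Tmem72 row passed the fold, and matches of 21 or 51 bases gave 62.3% and 75% in cell 284. Of all alternative values, 36 stayed within the spread between lanes (for shares of rows, within 1.5 times), 33 moved further and 0 reversed. The cause of each shift was not tested. The match lengths, the second cell and leaving out the 5 cells were chosen after seeing the data. No paired analysis was possible because all cells form 1 group.

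Each ratio rests on 1 cell, and no replicate culture was read. Values near 0 cannot be read as reads, since the authors' scaling is not known. Reads of rows that share sequence, on either strand, cannot be told apart.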
